A study of Homo sapiens with 160 samples.

Results

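The transcripts that changed within 1 h of indacaterol, an inhaled long-acting β2-agonist, were studied in BEAS-2B cells with RNA sequencing. Indacaterol was compared with vehicle in the 10 libraries whose labels give indacaterol alone or vehicle alone at 1 h, 5 of each, out of 160 samples in the series and 150 with values used. The rest of the series gave the same cells carbachol, a muscarinic agonist, or mometasone, a glucocorticoid, alone and in every combination, and collected RNA at 1, 2, 6 and 18 h. Its title asks how carbachol and indacaterol interact in the genes they regulate. All groups share the same background: BEAS-2B, 1 immortalised human bronchial epithelial line, labelled wild type, grown to confluence and then kept without serum overnight. The indacaterol 1 h group received 100 nM indacaterol for 1 h, and the vehicle 1 h group received vehicle for the same time. Groups used alongside them were indacaterol and vehicle at 2, 6 and 18 h and, at 1 h, indacaterol with carbachol (10 µM), with mometasone (100 nM) or with both, each beside the same mixture without indacaterol.

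The receptor of β2-agonists couples to the G protein Gs, which activates adenylyl cyclase and raises cyclic AMP. Cyclic AMP releases the catalytic subunits of protein kinase A, which phosphorylate the transcription factor CREB and free its CRTC coactivators, so that genes with a cyclic AMP response element near the start site are switched on within minutes. Many of the first genes to respond encode proteins that limit the signal again, such as phosphodiesterases, salt-inducible kinases, RGS proteins and MAP kinase phosphatases. In airway epithelium β2-agonists are also known to raise IL6, RGS2 and DUSP1.

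A library had between 12740 and 13043 genes at a deposited value of 1 or more with indacaterol and between 12613 and 12963 with vehicle, and its read depth is unknown. Mitochondrially encoded genes took 7.61% to 21.3% of the summed values with indacaterol, where replicate 1 was the highest, and 8.28% to 14.9% with vehicle. Vehicle replicate 5 stood apart from the other vehicle libraries, with an SD of log2 differences of 0.591 to 0.794 against 0.385 to 0.54 between the others. Indacaterol replicate 5 gave 0.445, 0.519, 0.688 and 0.625 against replicates 1 to 4, where the other indacaterol pairs gave 0.399 to 0.613. Of the epithelial markers, KRT8 averaged 345 with indacaterol and 398 with vehicle and KRT18 averaged 459 with indacaterol and 523 with vehicle, while EPCAM (0.284 with indacaterol and 0.446 with vehicle) and KRT5 (0.29 with indacaterol and 0.134 with vehicle) were near 0. Of the 10 mesenchymal markers VIM, COL1A1 and FN1 averaged 1582, 649 and 667 with indacaterol, and 1746, 637 and 669 with vehicle. Only 8 of the 10 passed the filter for testing, and COL3A1, described below, was low. The line thus carried some transcripts of both kinds. A list of 8 genes for ciliated and secretory airway cells included TUBB1, which is not a marker of those cells. From this list DNAH5 averaged 1.92 with indacaterol and 2.03 with vehicle, and FOXJ1 averaged 0.014 with indacaterol and 0 with vehicle. The summed level of the 8 was 1.45 to 3 with indacaterol and 2.07 to 2.82 with vehicle. The 6 endothelial markers summed to 0.72 to 0.86 with indacaterol and 0.35 to 0.98 with vehicle. The 8 immune markers summed to 12.5 to 22.6 with indacaterol and 17.5 to 22.6 with vehicle, of which CD68, a lysosomal gene, averaged 16.1 with indacaterol and 17.9 with vehicle, and CD14 averaged 1.23 with indacaterol and 1.01 with vehicle. SCGB3A1, TFF3, CD3E, FCGR3A and MS4A1 were listed at 0 in all 10 libraries. Whether the numbered replicates are separate cultures is not stated in the labels. A p-value of the main model reflects only how far the 150 libraries scatter within their 32 groups, and that scatter may be technical. Such a p-value takes no account of any effect that same-numbered libraries share. In such bulk libraries fewer cells of a kind and less RNA per cell cannot be told apart.

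Indacaterol raised 193 genes and lowered 15 within 1 h, 1.3% and 0.101% of the 14827 genes tested, at an adjusted p below 0.05 in limma. These 2 shares are the background for each count of list members called at 1 h below. The rises were also the larger changes: 99 of the 193 were at least 2-fold and 22 at least 4-fold, whereas 2 of the 15 falls, EGR1 and TXNIP, reached 2-fold. The median log2 change was 1.01 over the genes called higher, -0.65 over those called lower and 0 over all genes tested. A fold is taken from the log2(value + 1) difference and so understates the change of low genes, and 36 of the 193 rises had a vehicle mean under 1. The 5 indacaterol libraries lay above all 5 vehicle libraries for 142 of the 193, where 1.09% of all genes tested did so, and below them for 7 of the 15, where 0.135% did. In same-numbered pairs 185 of the 193 rises were higher in 5 of 5, and 14 of the 15 falls were lower in 5 of 5. The share of all genes tested with 5 of 5 pairs was not counted. The genes were called on these same 10 libraries, so neither the pair counts nor the lack of overlap is separate support. When only these 10 libraries entered the model, 83 genes were called higher and 0 lower. At an unadjusted p below 0.05 in the limma model of all groups 476 of the 14827 genes were higher and 176 lower. By chance about 1 in 20 genes would pass that threshold, so these 2 counts alone are not evidence of change. Leaving out replicate 2 gave 131 rises and 6 falls, leaving out replicate 4 gave 138 and 5, and leaving out replicate 1 gave 189 and 24. Across 11 such alternatives, 78 of the 193 rises and 0 of the 15 falls were called in all 11.

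**Figure D1:**
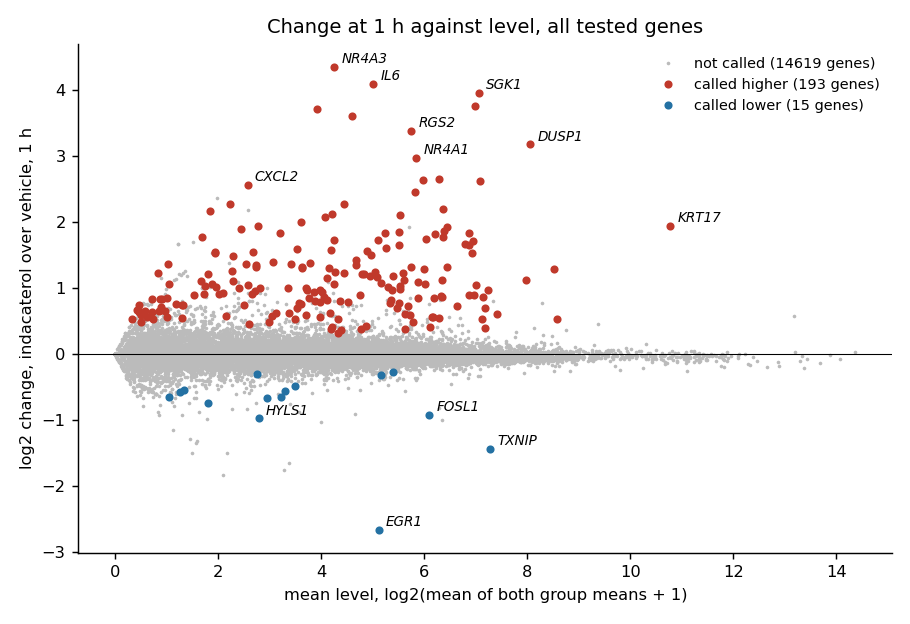
Each point is 1 of the 14827 tested genes, with its mean level over both groups on the horizontal axis (log2 of the deposited normalised signal plus 1) and its log2 change, indacaterol over vehicle at 1 h, on the vertical axis. The 193 genes called higher in limma (red) reach a log2 change of 4.34 and the 15 called lower (blue) reach -2.66, while the median of all genes is 0.

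The largest rises included genes known as early targets of cyclic AMP. NR4A3, an orphan nuclear receptor gene (GRCh38 chromosome 9, 99821855 to 99866891, plus strand), had values of 11.2, 60.4, 17.1, 73.7 and 15.7 in indacaterol replicates 1 to 5, against 0.35, 0.38, 0.50, 0.35 and 0.30 in vehicle replicates 1 to 5. Indacaterol replicates 2 and 4 were the highest, and all 5 stood far above every vehicle library. The log2 change was 4.34 (SE 0.30, 20.3-fold, adjusted p = 2.7e-24), the largest among the 193. The other 2 members of the family rose as well. NR4A2 (GRCh38 chromosome 2, 156324432 to 156342348, minus strand) had 16.9, 37.9, 22.9, 42.4 and 14.9 with indacaterol, in the same order, against 0.65, 0.94, 1.56, 0.89 and 0.92 with vehicle (log2 change 3.71, SE 0.27, adjusted p = 8.32e-23). NR4A1 (GRCh38 chromosome 12, 52022832 to 52059507, plus strand), which many stimuli induce, had 79.1, 139, 90.1, 128 and 67.7 with indacaterol against 9.44, 15.9, 13.9, 12.1 and 7.93 with vehicle (log2 change 2.97, SE 0.25, adjusted p = 1.43e-18). In all 3 genes the lowest indacaterol library was above the highest vehicle library, and all 3 of the 3 tested members were called higher.

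Genes whose products restrain the pathway that indacaterol activates were also among the largest rises. SIK1B and SIK1 encode salt-inducible kinases, which keep CRTC coactivators of CREB in the cytoplasm. SIK1B (GRCh38 chromosome 21, 6111134 to 6123739, plus strand) had 193, 239, 240.2, 271 and 228 with indacaterol, against 19.0, 14.7, 20.3, 13.1 and 15.3 with vehicle (log2 change 3.76, SE 0.18, adjusted p = 3.11e-38). SIK1 (GRCh38 chromosome 21, 43414483 to 43427189, minus strand) had 52.1, 32, 68.9, 49.2 and 14.9 with indacaterol, against 4.38, 0.51, 5.86, 4.22 and 0.28 with vehicle (log2 change 3.60, SE 0.49, adjusted p = 9.82e-09). The groups did not overlap in either gene, and replicates 2 and 5 were the lowest for SIK1 in both groups. The 2 copies are near-identical, so how the reads were divided between them is uncertain. The remaining 13 genes of the list of CREB factors, coactivators and salt-inducible kinases were not called, with log2 changes between -0.08 and 0.25, CREM among them (log2 change 0.25, SE 0.13, adjusted p = 1). The list of 14 had a median of 0.05, against 0 over all genes.

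RGS2, which speeds the switching off of Gq and so opposes bronchoconstrictor receptors, had 99.5, 93.5, 84.7, 84.0 and 121 with indacaterol, against 9.3, 6.99, 5.97, 7.15 and 13.7 with vehicle (GRCh38 chromosome 1, 192809039 to 192812283, plus strand). The groups did not overlap and the spread within each was small, with a log2 change of 3.38 (SE 0.18, adjusted p = 1.03e-33). None of the other 10 RGS genes tested was called, with log2 changes between -0.40 and 0.00. Of the 11, RGS2 alone was called higher, and the median was -0.15 against 0 over all genes.

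DUSP1, a nuclear phosphatase that switches off p38, JNK and ERK, was among the largest rises (GRCh38 chromosome 5, 172768090 to 172771195, minus strand). Its values were 501, 359, 698, 367 and 475 with indacaterol, against 57.5, 49.2, 57.2, 45.2 and 46.4 with vehicle. Replicates 2 and 4 were the lowest with indacaterol, still far above every vehicle library (log2 change 3.17, SE 0.18, adjusted p = 2.51e-32). The wider list of MAP kinase phosphatases and ERK feedback genes had 6 of 15 tested members called higher and 0 lower. DUSP8 (1.49), DUSP5 (1.11), DUSP4 (1.01), SPRY2 (0.93) and DUSP10 (0.57) also rose on the log2 scale. DUSP6, the ERK-selective cytoplasmic phosphatase, was not called (log2 change -0.45, SE 0.22, adjusted p = 1), and the median of the list was -0.00, against 0 over all genes. Without replicate 4 DUSP4, SPRY2 and DUSP10 lost their calls (adjusted p = 0.205, 0.0651 and 0.323), and DUSP10 also did without replicate 1, 2 or 5 (0.0925, 0.213 and 0.186).

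**Figure D2:**
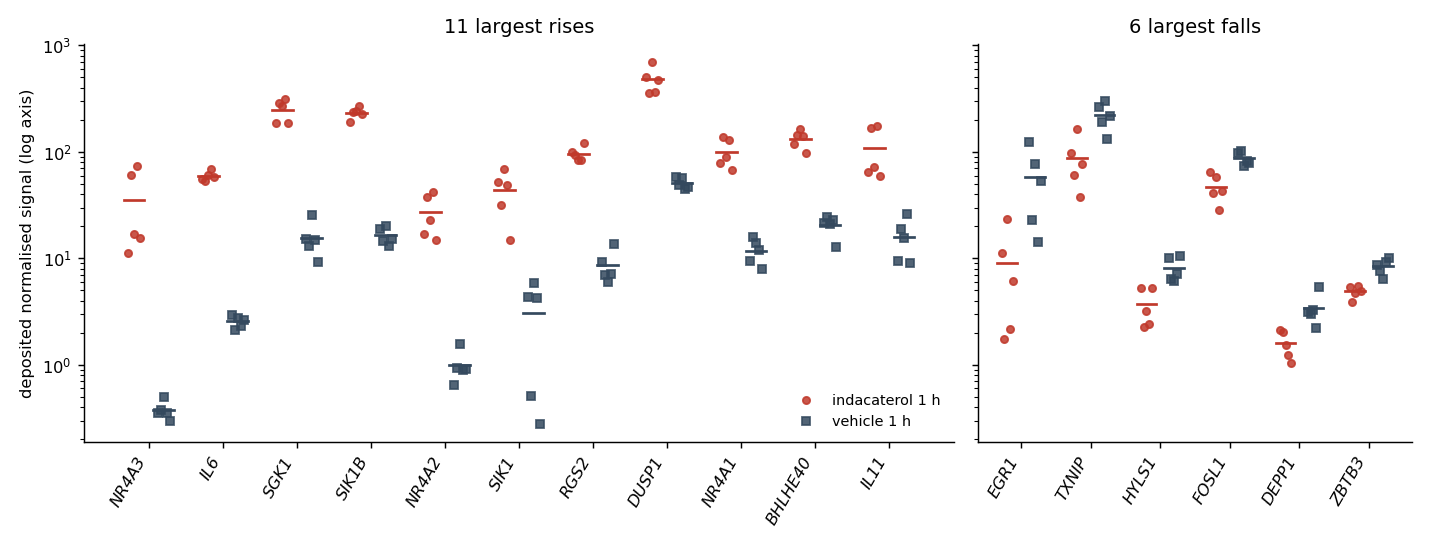
Values of each library (deposited normalised signal, log axis) for the 11 largest rises and the 6 largest falls of the naming rule, with indacaterol (circles) left of vehicle (squares) and short lines at the group means, n = 5 each. The groups do not overlap for any of the 11 rises, while those of EGR1 and TXNIP overlap.

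Transcripts of 3 enzymes that break down cyclic AMP rose. PDE10A, which hydrolyses cyclic AMP and cyclic GMP, had 51.1, 99.1, 37.5, 112 and 72.4 with indacaterol, against 14.7, 13.0, 22.4, 13.3 and 14.4 with vehicle (log2 change 2.10, SE 0.27, adjusted p = 1.74e-09). PDE4D and PDE4B encode cyclic AMP phosphodiesterases of airway cells. PDE4D had 4.87, 11.8, 7.67, 16.3 and 3.21 with indacaterol, against 2.98, 1.93, 2.91, 1.4 and 1.08 with vehicle (log2 change 1.54, SE 0.37, adjusted p = 0.00573), and replicate 4 was the highest. PDE4B had 2.47, 3.2, 4.32, 4.19 and 2.14 with indacaterol, against 2.21, 0.95, 1.86, 0.85 and 0.68 with vehicle, and the groups overlapped (log2 change 0.90, SE 0.24, adjusted p = 0.0167). Both PDE4 genes lost their call without replicate 2 (adjusted p = 0.25 and 0.328) or replicate 4 (0.357 and 0.53) and with only the groups compared (0.217 and 0.242). The other 13 of the 16 tested phosphodiesterase genes were not called, with log2 changes between -0.16 and 0.33, and the list median was 0.06.

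Genes of the cyclic AMP pathway upstream of CREB showed few changes in transcript level. GNAS, which encodes the Gs α subunit, had a log2 change of 0.06 (SE 0.10), and PRKACA, a catalytic subunit of protein kinase A, had 0.00 (SE 0.10). AKAP12, a scaffold for protein kinase A, had 13.7, 39.0, 26.2, 50.5 and 13.1 with indacaterol and 20.7, 14.4, 19.5, 11.6 and 9.59 with vehicle, with indacaterol replicates 2 and 4 the highest, and was not called (log2 change 0.73, SE 0.36, adjusted p = 1). A further 24 members not called, GNAS and PRKACA included, lay between -0.26 and 0.25, adenylyl cyclases, regulatory subunits, receptor kinases and arrestins among them. ARRDC3, which encodes an arrestin-like adaptor, was the only 1 of 27 tested members called. It had 28.7, 38.4, 45.8, 45.1 and 15.7 with indacaterol, against 11.3, 5.05, 7.34, 5.53 and 3.02 with vehicle (log2 change 2.26, SE 0.38, adjusted p = 3.9e-06), and the list median was 0.04.

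Transcripts of 5 cytokine and chemokine genes rose. IL6 (GRCh38 chromosome 7, 22725884 to 22732002, plus strand) had 55.7, 53.6, 60.9, 69.5 and 58.3 with indacaterol, against 2.95, 2.11, 2.76, 2.33 and 2.66 with vehicle. Its libraries agreed closely within each group, and the log2 change was 4.09 (SE 0.23, 17.0-fold, adjusted p = 5.73e-32). IL11, a member of the same cytokine family, had 64.2, 169, 72.6, 176 and 59.0 with indacaterol, against 9.45, 19.0, 15.6, 26.3 and 9.12 with vehicle (log2 change 2.63, SE 0.29, adjusted p = 6.06e-13), with replicates 2 and 4 highest in both groups. The neutrophil chemokine gene CXCL2 had 7.67, 8.71, 12.4, 8.68 and 8.06 with indacaterol, against 0.94, 0.39, 0.47, 1.59 and 0.36 with vehicle (log2 change 2.56, SE 0.21, adjusted p = 6.47e-20). LIF (1.59) and CCL2 (0.89) also rose, so that 5 of 11 tested members were called higher and 0 lower, with a list median of 0.36. CXCL1, a close relative of CXCL2, was not called (log2 change 0.36, SE 0.28, adjusted p = 1), nor were CCL20, CCL5, IL18, IL24 and IL33. Of 15 NF-kB subunits and feedback genes only BCL3, an atypical inhibitor of NF-kB, was called (log2 change 1.34, SE 0.26, adjusted p = 0.000176), and the list median was 0.09. Of 18 interferon response genes, 20 cholesterol synthesis genes, 9 prostaglandin genes and 8 EGF receptor ligand and feedback genes 0 were called, with medians of 0.04, 0.07, -0.04 and 0.13.

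To set these rises beside their promoters, the 250 bases before the annotated start are shown for 8 of the largest, from RefSeq (GRCh38.p14), 5′ to 3′ on the strand of the gene. Capitals mark TGACGTCA, the palindromic cyclic AMP response element, its 5-base core TGACG on either strand (written CGTCA where the core lies on the opposite strand), and TATAAA within 45 to 16 bases before the start. DUSP1 was the only 1 of the 20 largest rises with an entry in the table to hold the full element. NR4A3, IL6, SIK1 and RGS2 are the largest rises that held the core without the full element, a set added after values were seen, and SGK1, NR4A1 and BHLHE40 are the largest that held neither in any of their windows. SGK1 has 3 windows in the table and NR4A1 has 2, of which 1 is shown. NR4A2, SIK1B, SNAI2 and KRT17P1 were not matched.
DUSP1 (chr5:172771196-172771445, minus strand): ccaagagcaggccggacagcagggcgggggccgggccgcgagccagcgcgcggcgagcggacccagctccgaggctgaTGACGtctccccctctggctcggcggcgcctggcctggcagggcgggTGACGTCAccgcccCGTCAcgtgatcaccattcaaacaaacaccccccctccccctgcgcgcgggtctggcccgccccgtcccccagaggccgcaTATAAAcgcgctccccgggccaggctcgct
NR4A3 (chr9:99821635-99821884, plus strand): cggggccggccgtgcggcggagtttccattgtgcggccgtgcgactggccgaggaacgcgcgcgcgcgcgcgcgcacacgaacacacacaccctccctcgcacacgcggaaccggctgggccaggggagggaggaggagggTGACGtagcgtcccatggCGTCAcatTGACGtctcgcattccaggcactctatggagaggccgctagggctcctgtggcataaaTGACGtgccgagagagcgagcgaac
IL6 (chr7:22726950-22727199, plus strand): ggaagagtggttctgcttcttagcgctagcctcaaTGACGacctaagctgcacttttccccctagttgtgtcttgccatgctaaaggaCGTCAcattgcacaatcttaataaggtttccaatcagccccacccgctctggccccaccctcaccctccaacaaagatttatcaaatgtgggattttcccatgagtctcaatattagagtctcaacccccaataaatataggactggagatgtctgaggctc
SIK1 (chr21:43427132-43427381, minus strand): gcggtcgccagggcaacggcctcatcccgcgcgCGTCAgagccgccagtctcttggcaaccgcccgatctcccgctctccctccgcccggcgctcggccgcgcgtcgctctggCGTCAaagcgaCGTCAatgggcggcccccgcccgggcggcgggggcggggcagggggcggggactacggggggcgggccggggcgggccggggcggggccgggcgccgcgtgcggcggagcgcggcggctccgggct
RGS2 (chr1:192808789-192809038, plus strand): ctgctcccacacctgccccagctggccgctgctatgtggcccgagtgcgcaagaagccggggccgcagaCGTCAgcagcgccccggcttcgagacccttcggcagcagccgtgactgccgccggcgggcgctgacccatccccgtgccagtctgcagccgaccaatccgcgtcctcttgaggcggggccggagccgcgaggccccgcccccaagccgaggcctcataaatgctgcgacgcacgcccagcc
SGK1 (chr6:134318113-134318362, minus strand): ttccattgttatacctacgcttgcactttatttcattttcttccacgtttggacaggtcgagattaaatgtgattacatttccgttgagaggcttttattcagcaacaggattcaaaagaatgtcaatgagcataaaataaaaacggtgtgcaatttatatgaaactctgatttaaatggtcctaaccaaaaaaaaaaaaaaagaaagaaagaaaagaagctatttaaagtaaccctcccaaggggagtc
NR4A1 (chr12:52022582-52022831, plus strand): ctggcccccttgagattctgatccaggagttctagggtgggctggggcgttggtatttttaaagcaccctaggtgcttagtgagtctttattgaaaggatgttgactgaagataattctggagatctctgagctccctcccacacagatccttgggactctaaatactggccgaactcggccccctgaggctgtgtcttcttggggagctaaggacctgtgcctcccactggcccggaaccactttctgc
BHLHE40 (chr3:4979187-4979436, plus strand): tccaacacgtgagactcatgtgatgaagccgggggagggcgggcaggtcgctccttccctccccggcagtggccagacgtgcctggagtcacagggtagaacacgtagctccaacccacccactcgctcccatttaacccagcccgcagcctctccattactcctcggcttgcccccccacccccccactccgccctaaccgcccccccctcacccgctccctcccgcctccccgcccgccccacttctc

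In DUSP1 the full element began 125 bases before the start, with separate cores at 172 and 111 bases and TATAAA at 30. NR4A3 held 4 cores, at 109, 91, 83 and 25 bases, IL6 held 2, at 215 and 162, and SIK1 held 3, at 217, 137 and 126. RGS2 held 1 core, at 181 bases. A promoter window of 300 bases (250 before and 50 from the start on) was available for 147 of the 193 genes called higher and for 10864 of the genes tested. At least 1 window held TGACGTCA for 13 of the 147 (8.84%), against 404 of the 10864 (3.72%) and 2.25% of all genes in the table. The 13 were DUSP1, AVPI1, DUSP8, SNRK, CHMP1B, MAFF, CGA, MCAM, ISL2, SLC25A25, ZFP36L1, TP53INP2 and GABARAPL1. CGA, the glycoprotein hormone α subunit whose promoter is a classic example of this element, had a log2 change of 1.05 (SE 0.26, adjusted p = 0.00678). Of the 13, CGA, SNRK, ZFP36L1, TP53INP2 and GABARAPL1 lost their call at 1 h without replicate 2 (adjusted p = 0.153, 0.215, 0.114, 0.108 and 0.121), the first 4 also without replicate 4 (0.531, 0.315, 0.173 and 0.403), and TP53INP2 without replicate 1 (0.145). The core was present for 51.0% of the genes called higher, against 40.1% of genes tested and 28.4% of all genes in the table, at a median G or C content of 65.3% in windows of genes called higher and 64.3% in those of all genes tested. TATAAA at that position was present for 14.3% of the genes called higher, against 2.6% of genes tested and 3.01% of all genes in the table. Of 14 genes called lower with a window, 0 held TGACGTCA, 5 held the core (35.7%) and 1 held TATAAA (7.14%). Genes can have several windows, and per window the shares for the genes called higher were 5.26%, 36.8% and 8.5%, against 2.69%, 31.3% and 1.82% for all genes tested. A match of letters is a description of these windows and does not show a bound site.

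AP-1 genes rose unevenly. Of 14 tested AP-1 and ATF genes 6 were called higher and 1 lower, with a list median of 0.53. FOSB had 3.78, 5.99, 17.6, 6.72 and 4.53 with indacaterol, against 0.99, 1.02, 1.83, 0.69 and 0.98 with vehicle (log2 change 1.89, SE 0.28, adjusted p = 2.39e-07), and replicate 3 was the highest in both groups. FOS had 6.24, 2.93, 18.7, 4.63 and 5.9 with indacaterol, against 3.12, 1.06, 2.61, 1.42 and 1.64 with vehicle, and the groups overlapped (log2 change 1.36, SE 0.32, adjusted p = 0.00368); without replicate 3 its adjusted p was 0.0616, and with each time fitted alone 0.438. ATF3, a stress-induced repressor (1.84), and the small MAF genes MAFK (1.11) and MAFF (1.07) rose on the log2 scale, as did JUNB (1.05). JUN was lower in mean and not called (log2 change -0.82, SE 0.24, adjusted p = 0.0627). FOSL1, a FOS family subunit induced by ERK, was called lower, with 65.3, 40.9, 57.6, 28.5 and 42.6 with indacaterol against 97.3, 103, 74.2, 82.6 and 79.3 with vehicle (log2 change -0.92, SE 0.20, adjusted p = 0.000779). Its groups did not overlap, and its adjusted p was 0.0632 without replicate 4 and 0.149 with only the groups compared.

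**Figure D3:**
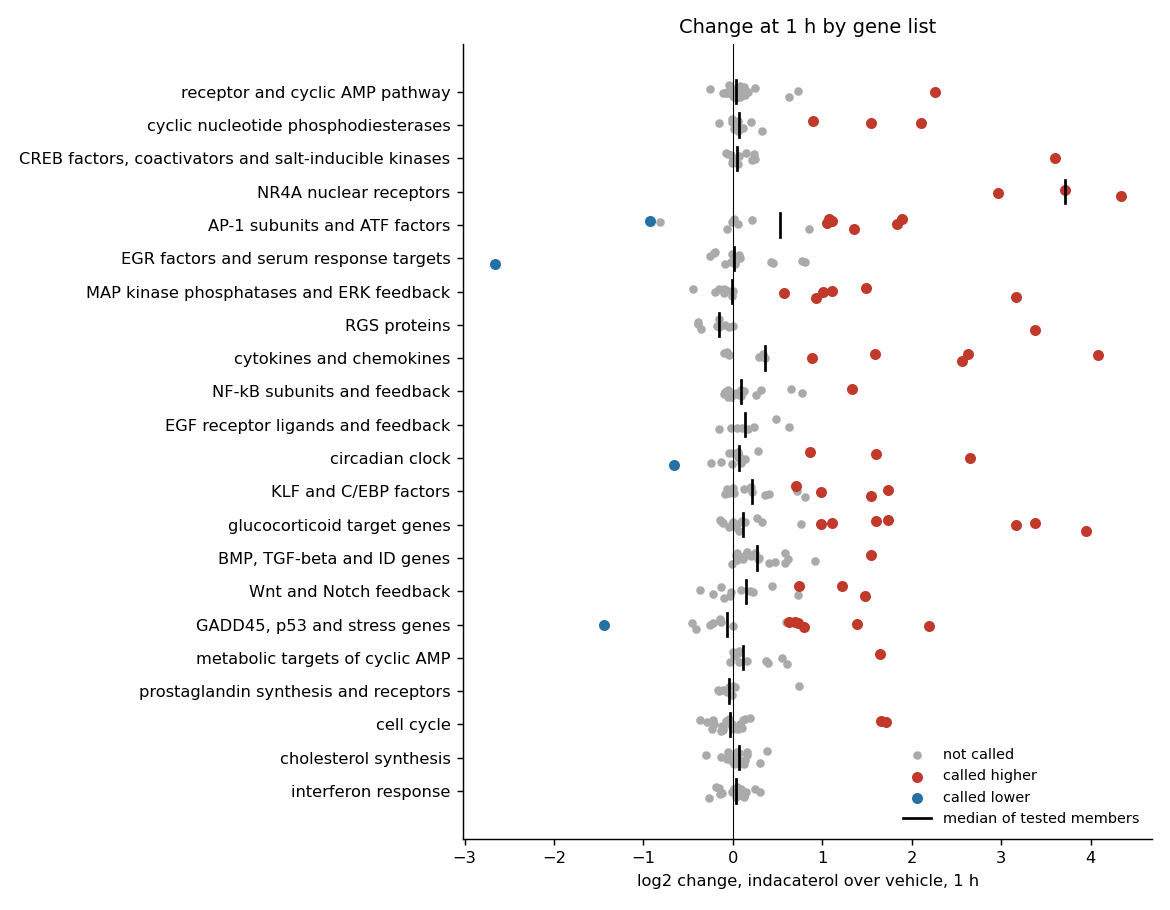
Log2 change at 1 h, indacaterol over vehicle, of each tested member of 22 gene lists, with called genes in red (higher) or blue (lower), uncalled genes in grey and a black bar at the median of the list. The NR4A list alone has its median above 3, at 3.71, and most other medians lie near 0.

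Clock-related genes were called in both directions. BHLHE40, a repressor of the core clock, had 118, 143, 165, 140.2 and 96.9 with indacaterol, against 21.3, 24.5, 20.9, 22.8 and 12.7 with vehicle (log2 change 2.65, SE 0.34, adjusted p = 1e-09), where replicate 5 was the lowest in both groups. PER1, a clock gene known to respond to cyclic AMP, had 62.4, 57.2, 54.7, 60.6 and 45.9 with indacaterol, against 11.4, 23.8, 22.3, 22.2 and 13.2 with vehicle (log2 change 1.60, SE 0.16, adjusted p = 1.25e-14). NFIL3 rose by less (log2 change 0.87, SE 0.16, adjusted p = 3.77e-05), and CIART, a clock repressor, was called lower (log2 change -0.66, SE 0.16, adjusted p = 0.0045). PER2, with a log2 change of 0.08, and the 12 other clock genes were not called, and the list of 17 had a median of 0.07. CIART lost its call without replicate 2, 4 or 5 (adjusted p = 0.061, 0.252 and 0.0791).

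Several genes that glucocorticoids also switch on were called higher with indacaterol and no glucocorticoid present. SGK1, a kinase that stabilises epithelial sodium channels, had 188, 285, 271, 315 and 188 with indacaterol, against 15.1, 13.2, 25.6, 14.9 and 9.34 with vehicle (log2 change 3.95, SE 0.29, adjusted p = 3.14e-23; GRCh38 chromosome 6, 134169246 to 134318112, minus strand). CEBPD, a C/EBP transcription factor, had 89.8, 123, 91.9, 92.8 and 98.5 with indacaterol, against 25.7, 34.2, 28.9, 20.3 and 38.6 with vehicle (log2 change 1.74, SE 0.21, adjusted p = 1.36e-10). The groups did not overlap in either gene. Of 22 tested glucocorticoid target genes 7 were called higher, namely SGK1, RGS2, DUSP1, CEBPD, PER1, CRISPLD2 and KLF9, and 0 lower. Over all genes tested 1.3% were called higher and 0.101% lower. TSC22D3 (0.28), FKBP5 (0.07) and ZBTB16 (-0.05), among the most used markers of the glucocorticoid receptor, were not called, and the list median was 0.12. The list was chosen with earlier results of these data known, and 5 of the 7 genes stand in other lists as well. KLF9 lost its call without replicate 2 (adjusted p = 0.266) or 4 (0.38), and CRISPLD2 without replicate 1 (0.0804), 2 (0.953) or 4 (0.534).

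Further transcription factor and growth genes were called higher. KLF4 (1.54), KLF9 (0.99) and CEBPA (0.71) rose with CEBPD, 4 of 18 KLF and C/EBP genes tested, with a list median of 0.21. SNAI2, a repressor of E-cadherin, had 4.95, 8.54, 8.0, 8.25 and 3.99 with indacaterol, against 0.57, 0.47, 0.56, 0.56 and 0.62 with vehicle (log2 change 2.27, SE 0.23, adjusted p = 2.22e-14). ID3, an inhibitor of helix-loop-helix factors, rose (log2 change 1.55, SE 0.20, adjusted p = 2.01e-09) as the only called member of 18 BMP, TGF-β and ID genes; ID1 was not called (log2 change 0.92, SE 0.32, adjusted p = 0.275). HES1, a Notch target, had 13.0, 2.41, 3.83, 2.14 and 10.9 with indacaterol, against 1.81, 0.79, 0.81, 0.74 and 2.26 with vehicle (log2 change 1.48, SE 0.27, adjusted p = 5.63e-05), and replicates 1 and 5 were far above the others in the indacaterol group. HES1 had an adjusted p of 0.527 with only the groups compared. MYC (163, 140.4, 253, 145 and 172 with indacaterol, against 75.9, 34.7, 76.6, 44.3 and 49.0 with vehicle, log2 change 1.65, SE 0.19, adjusted p = 9.68e-12) and PLK2 (1.71), a stress-induced kinase, were the only called members of 22 cell cycle genes, and no cyclin was called.

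Metabolic and stress genes were called in both directions. DDIT4, an inhibitor of mTORC1, had 113, 126, 158, 149 and 121 with indacaterol, against 26.8, 28.8, 20.5, 36.1 and 31.1 with vehicle (log2 change 2.19, SE 0.20, adjusted p = 7.01e-17). TRIB1, BCL2L11, BTG1, CDKN1A and BTG2 also rose, by 1.39, 0.79, 0.73, 0.70 and 0.62 on the log2 scale. No GADD45 gene was called, and GADD45A had a log2 change of -0.22. In all, 6 of 16 stress genes were called higher and 1 lower, with a list median of -0.07. SLC2A3, which encodes the glucose transporter GLUT3, had 35.2, 87.4, 70.5, 91.9 and 53.2 with indacaterol, against 17.2, 16.8, 36.9, 10.8 and 25.9 with vehicle (log2 change 1.64, SE 0.33, adjusted p = 0.00032), the only called member of 12 metabolic cyclic AMP targets. Without replicate 4 SLC2A3, BCL2L11 and BTG1 lost their calls (adjusted p = 0.0635, 0.398 and 0.0861), and BCL2L11 also did without replicate 2 (0.303). EDN1, the gene of endothelin-1, had 35.4, 19.5, 40.1, 24.8 and 24.6 with indacaterol, against 8.33, 3.11, 7.96, 5.91 and 4.61 with vehicle (log2 change 2.11, SE 0.22, adjusted p = 4.77e-14). ZNF331, a zinc finger gene, had 68.0, 139, 72.4, 150.3 and 47.5 with indacaterol, against 10.7, 17.6, 22.9, 15.4 and 11.8 with vehicle (log2 change 2.44, SE 0.30, adjusted p = 1.24e-10), with replicates 2 and 4 the highest.

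Keratin transcripts were chosen for description after values were seen, and KRT17 had the highest mean value of the 193 with indacaterol. KRT17, a keratin of basal and activated epithelium, had 2328, 3293, 1999, 3189 and 2906 with indacaterol, against 439, 694, 730.0, 616 and 1236 with vehicle (log2 change 1.94, SE 0.24, adjusted p = 2.76e-10). KRT16 had 2.83, 5.73, 2.11, 4.17 and 4.95 with indacaterol, against 0.52, 0.12, 0.25, 0.47 and 0.76 with vehicle (log2 change 1.76, SE 0.20, adjusted p = 4.12e-12), and the pseudogene KRT17P1 had 9.44, 4.56, 6.04, 2.07 and 2.47 with indacaterol, against 0.18, 0.41, 0.21, 0.22 and 0 with vehicle (log2 change 2.16, SE 0.22, adjusted p = 1.34e-14). These 3 share long stretches of sequence, so the low values of KRT16 and KRT17P1 beside KRT17 may hold reads of KRT17, and their assignment is uncertain. KRT8 (-0.18), KRT18 (-0.16) and KRT7 (0.41) were not called. The summed level of the 12 epithelial markers was 2681 to 4335 with indacaterol and 1424 to 2906 with vehicle, and KRT17 was the only called gene of the 11 tested. Of 8 tested mesenchymal markers COL3A1 alone was called (log2 change 0.55, SE 0.14, adjusted p = 0.0101; adjusted p = 0.294, 0.205 and 0.0569 without replicate 2, 4 or 5), at a mean of 1.89 with indacaterol and 1.0 with vehicle, and the summed level was 2519 to 3254 with indacaterol and 2778 to 3739 with vehicle.

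The falls were fewer and less firmly separated. EGR1, an immediate early zinc finger factor that serum response factor and ERK switch on (GRCh38 chromosome 5, 138465490 to 138469315, plus strand), had 11.3, 1.76, 23.4, 2.19 and 6.07 with indacaterol, against 123, 23.0, 76.8, 14.2 and 53.5 with vehicle. It was lower in 5 of 5 same-numbered pairs, the groups overlapped, with replicates 2 and 4 the lowest in both, and the log2 change was -2.66 (SE 0.58, adjusted p = 0.00121). The adjusted p was 0.649 with each time fitted alone and 0.352 with only the groups compared. EGR1 was the only called member of 16 EGR and serum response genes; IER3 (0.81) and CCN2 (0.77) were not called, and the list median was 0.02. TXNIP, which restrains glucose uptake and binds thioredoxin (GRCh38 chromosome 1, 145992435 to 145996600, minus strand), had 97.0, 61.2, 164, 37.8 and 77.4 with indacaterol, against 265, 191, 300.2, 133 and 216 with vehicle (log2 change -1.44, SE 0.29, adjusted p = 0.000426), lower in 5 of 5 pairs with overlapping groups. Its adjusted p was 0.12 and 0.249 under the same alternatives.

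The groups did not overlap for HYLS1, a gene of centriole and cilium formation, which had 5.31, 2.27, 3.17, 2.42 and 5.3 with indacaterol against 10.1, 6.38, 6.15, 7.18 and 10.6 with vehicle (log2 change -0.98, SE 0.19, adjusted p = 0.000166). DEPP1, a target of FOXO factors, had 2.12, 2.05, 1.52, 1.23 and 1.05 with indacaterol, against 3.15, 3.03, 3.25, 2.2 and 5.41 with vehicle (log2 change -0.75, SE 0.18, adjusted p = 0.00739), and an adjusted p of 0.473 without replicate 5. ZBTB3 (-0.67), ANKRD34A (-0.65), CCDC71L (-0.57), TSSK6 (-0.55), ZSWIM1 (-0.48) and MAD2L1BP (-0.32) were called lower by smaller amounts. The 3 other falls, named outside the rule, were ZNF625-ZNF20 (-0.58), ZNF329 (-0.31) and FADD (-0.28). All 9 lost their call without replicate 2 (adjusted p = 0.0658 to 0.789), and all but TSSK6 did without replicate 4 (0.102 to 1). All 15 also had a negative log2 change at 2 h and on each of the 3 other backgrounds at 1 h, and 10 of the 15 were called lower at 2 h, where 0.911% of genes tested were, 2 at 6 h, where 0.803% were, and 0 at 18 h, where 0.0674% were.

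At 2 h, in other libraries, most of the rises were still present. Of the 193 genes, 173 (89.6%) were called higher at 2 h, where 2.99% of genes tested were, 34 (17.6%) at 6 h, where 0.937% were, and 8 (4.15%) at 18 h, where 0.135% were. In either direction 3.91% of genes tested were called at 2 h. Without replicate 2 in any group, 115, 20 and 2 genes were called higher both at 1 h and at 2, 6 or 18 h, and at 18 h 3 were without replicate 5 and 5 without replicate 3 or 4. The median log2 change of the 193 was 1.01 at 1 h, 1.23 at 2 h, 0.15 at 6 h and 0.10 at 18 h. NR4A3 had log2 changes of 4.34, 5.36, 0.95 and 0.44 at 1, 2, 6 and 18 h, and IL6 had 4.09, 2.84, -0.35 and -0.12. The 7 genes called higher at all 4 times were PDE10A, CD200, CEBPD, TCF21, LPL, CCL2 and CFAP251. PDE10A had log2 changes of 2.10, 3.53, 2.11 and 1.29 over the 4 times. DUSP5 and CSRNP1 were called higher at 1 h and lower at 6 h, with log2 changes of -0.81 and -0.67 at 6 h. A further 20 genes were called higher at 1 h and at no later time, LIF, HES1, CITED2, TIPARP, SOX9 and SPRY2 among them, named after their values were seen. At 1 h LPL lost its call without replicate 2 or 4 (adjusted p = 0.215 and 0.208), SPRY2 without replicate 4 (0.0651) and SOX9 without replicate 2, 3 or 4 (0.101, 0.0546 and 0.189). That the 20 passed at 1 h and not later does not show that their changes differed between the times.

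**Figure D4:**
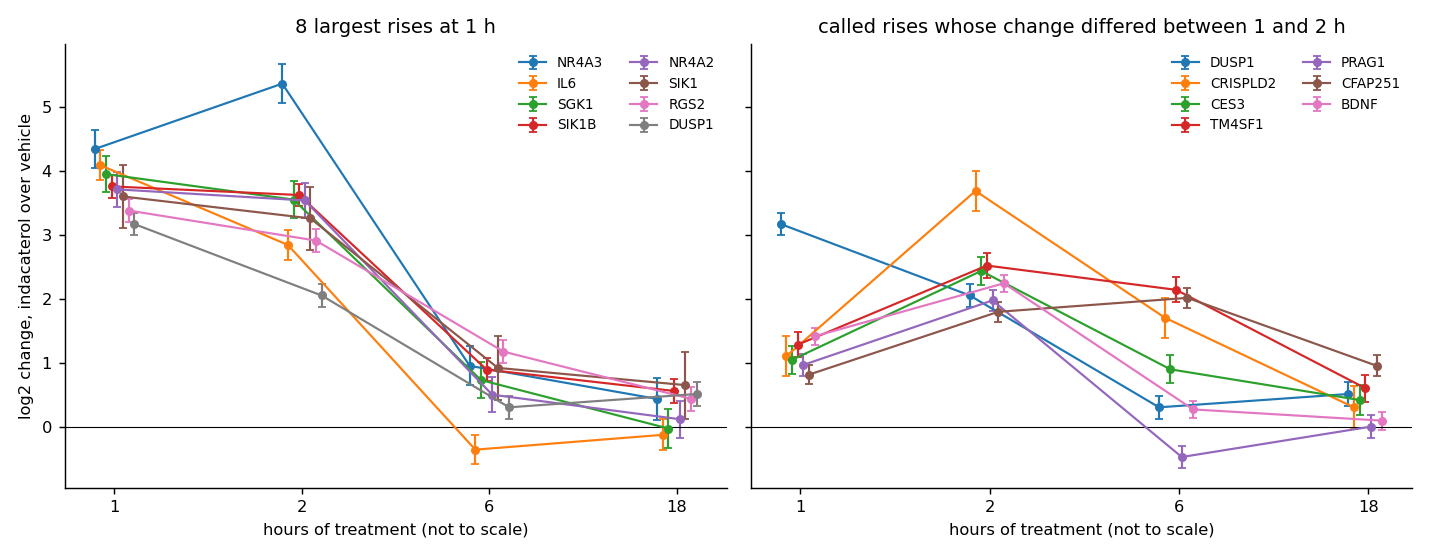
Log2 change, indacaterol over vehicle at the same time, at 1, 2, 6 and 18 h (categories, not to scale), with bars of 1 SE from limma, for the 8 largest rises (left) and for 7 called rises whose change differed between 1 and 2 h (right). The 8 largest rises have log2 changes of 3.17 to 4.34 at 1 h and at most 1.18 at 6 h, while CRISPLD2 and TM4SF1 are higher at 2 h than at 1 h.

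The difference between the 1 h and 2 h changes was tested directly, and 18 genes were called, 4 with the higher log2 change at 1 h and 14 with the higher at 2 h (0.027% and 0.0944% of genes tested). Among the 193, DUSP1 had the larger change at 1 h (3.17 at 1 h and 2.05 at 2 h; difference 1.12, SE 0.25, adjusted p = 0.0219). The 8 with the larger change at 2 h were CRISPLD2, CES3, TM4SF1, PRAG1, CFAP251, BDNF, SIRPA and FSTL3, the last 2 named after values were seen. CRISPLD2, a secreted protein gene that limits cytokine release in airway smooth muscle, had 1.51, 5.55, 1.18, 8.92 and 0.93 with indacaterol at 1 h, against 0.70, 0.44, 0.58, 1.06 and 0.87 with vehicle. Indacaterol replicates 2 and 4 were the highest, and the call at 1 h was lost without either (adjusted p = 0.953 and 0.534), without replicate 1 (0.0804), without the filter (0.0513) and with each time fitted alone or only the groups compared (1 in both). At 2 h it averaged 23.6 ± 3.35 with indacaterol and 0.904 ± 0.208 with vehicle (SD, n = 5 each), and the difference of the log2 changes was -2.58 (SE 0.44, adjusted p = 0.000283). BDNF, the neurotrophin gene, rose at both times, with log2 changes of 1.42 and 2.24. SIRPA lost its call at 1 h itself without replicate 2 or 4 (adjusted p = 0.468 and 0.914), and FSTL3 without replicate 2 (0.0661). The count of 18 became 3 without replicate 1, 5 without replicate 5, 9 without the libraries over 20% mitochondrial and 0 with only the groups compared, and the difference for DUSP1 was not called in any of these (adjusted p = 0.287, 0.485, 0.255 and 0.44). Without replicate 5 the difference was called for 0 of the 9 genes named here (adjusted p = 0.0528 to 0.485), and without replicate 1 for CRISPLD2 alone. Without replicate 3 it was lost for CES3, PRAG1, CFAP251, BDNF and FSTL3 (0.291, 0.507, 0.103, 0.664 and 0.223), without replicate 2 for BDNF and FSTL3 (0.0517 and 0.133), and without replicate 4 for DUSP1, CES3 and FSTL3 (0.0567, 0.0547 and 0.0523).

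Replicates 2 and 4 were the highest 2 indacaterol libraries for 94 of the 193 rises (48.7%), where they were for 988 of the 14827 genes tested (6.66%), and were the highest 2 vehicle libraries for 12 of the 193 (6.22%). The pattern held in NR4A3, NR4A2, NR4A1, IL11, ZNF331, PDE10A, PDE4D and KRT17, and in 7 of the 8 genes with the larger change at 2 h. It was absent in IL6, DUSP1, RGS2 and SIK1. The series was sequenced over 2 kits, the labels do not say which library ran on which, and the part of these 2 libraries in the size of the changes was not tested beyond the values given without them.

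On the 3 other backgrounds at 1 h, all in libraries that the comparison with vehicle does not use, many of the same genes were called higher with indacaterol. Of the 193, 153 (79.3%) were called higher when indacaterol was added to carbachol (2.77% of genes tested), 119 (61.7%) when added to mometasone (1.32%) and 138 (71.5%) when added to both (1.92%). Without replicate 2 the genes called both alone and on each background numbered 95, 72 and 86, and without replicate 4 they numbered 94 with carbachol and 85 with both. In all 4 settings 97 genes were called higher, and 16 were called in none of the other 3, FOSB, EPHB3, HLX and ELF3 among them. Passing with indacaterol alone and not on these backgrounds does not show that the changes of the 16 differed. With indacaterol alone HLX lost its call without replicate 2 or 4 (adjusted p = 0.172 and 0.205), and ELF3 without replicate 2 (0.111). The median log2 change of the 193 was 0.86, 0.82 and 0.90 in the 3 backgrounds. RGS2 had log2 changes of 3.38 alone, 3.53 with carbachol, 4.44 with mometasone and 4.53 with both. Of the falls, 11, 6 and 9 of the 15 were called lower on these backgrounds (3.86%, 0.115% and 0.479% of genes tested). The carbachol counts moved widely with single replicates: 983 genes (6.63%) were called in either direction, against 328, 259, 341 and 3249 without replicates 1, 2, 4 and 5. With mometasone and carbachol both present 356 (2.4%) were called, against 178, 621, 165 and 604 without replicates 2, 3, 4 and 5.

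Tested directly, 11 genes (0.0742%) had a different indacaterol change with mometasone than without (3 with a higher and 8 with a lower log2 change with mometasone, 0.0202% and 0.054% of genes tested), 8 of them among the 193. DUSP1 averaged 896 ± 159.5 with mometasone and indacaterol (SD, n = 5) and 319 ± 34.5 with mometasone (SD, n = 4), a log2 change of 1.48, against 3.17 without mometasone (difference -1.69, SE 0.26, adjusted p = 9.16e-06). SGK1 averaged 309 ± 72.0 with mometasone and indacaterol (SD, n = 5) and 81.3 ± 15.1 with mometasone (SD, n = 4), with a difference of -2.05 (adjusted p = 0.00475). Both genes were already above their vehicle means in the mometasone libraries, and so were PER1 (difference -1.22) and DDIT4 (-1.49). RASD1, a Ras-like GTPase gene, went the other way, with 5.68 ± 2.2 with mometasone and indacaterol (SD, n = 5) and 0.282 ± 0.144 with mometasone (SD, n = 4), against 0.702 ± 0.162 with indacaterol alone and 0.134 ± 0.072 with vehicle (SD, n = 5 each; difference 1.75, adjusted p = 1.86e-11). KRT17P1 (-1.58), C15orf48 (-1.45) and WWP2 (-1.03) were the other 3. Without replicate 2 the 11 became 6, without replicate 4 they became 3, and with each time fitted alone 4. The difference was lost without replicate 2 for SGK1 and DDIT4 (adjusted p = 0.286 and 0.245), and without replicate 4 for SGK1, DDIT4, PER1, KRT17P1 and WWP2 (0.262, 0.262, 0.127, 0.159 and 0.0884). KRT17P1 also lost it without replicate 1 (0.0991). With a pseudocount of 0.1 the differences for the low genes RASD1 and KRT17P1 were not called (2.11, adjusted p = 0.067, and -2.79, adjusted p = 0.999). With carbachol present 0 genes had a different indacaterol change in limma, while 536 had a higher and 984 a lower one at an unadjusted p below 0.05. The adjusted count was 1 without replicate 3, 11 without replicate 4 and 1 without the libraries over 20% mitochondrial. With a replicate block in the model it was 2003, although the replicate numbers were not taken to pair samples. The count of 0 thus depends on the model, and does not show that the indacaterol change was the same with carbachol.

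The genes called higher at 1 h had short annotated spans. The median annotated span was 12.3 kb over the 190 genes called higher that matched GENCODE 29, with quartiles of 5.36 and 28.5 kb, against 28.9 kb over 14396 genes tested, with quartiles of 10.6 and 72.4 kb. It was 5.14 kb over the 15 genes called lower. Of genes called higher at a later time and not at 1 h, the median span was 42.9 kb at 2 h (268 genes), 87.2 kb at 6 h (100) and 78.5 kb at 18 h (12). Long genes were present among the 1 h rises: PDE4D spans 1553 kb, PDE10A 661 kb and SGK1 149 kb as annotated. The span is that of the whole gene, and the transcript in use was not measured. Of the 190, 185 were annotated as protein coding and 5 as pseudogenes, against 13193 and 1190 of the 14396 genes tested. Only 5 of the 14396 were annotated as long non-coding RNA, so the absence of such genes from the rises says little.

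**Figure D5:**
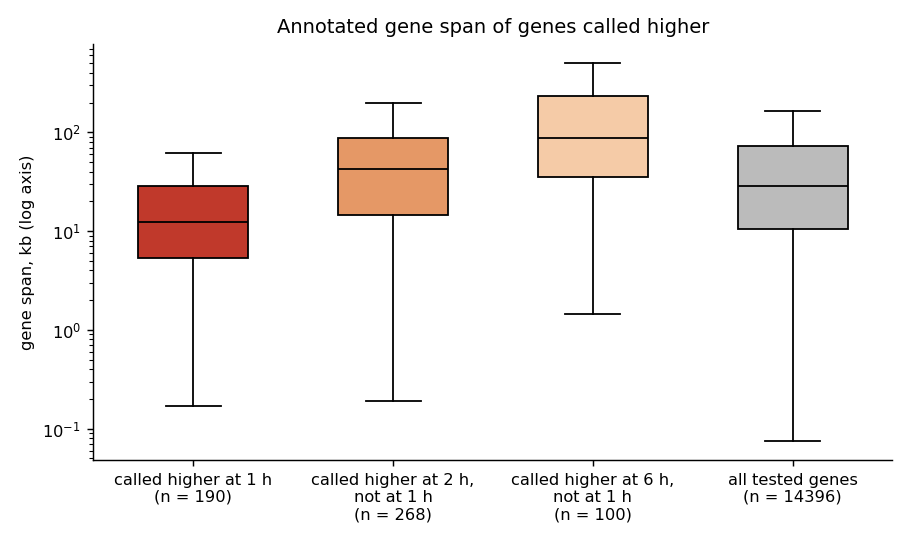
Annotated gene span in kb (log axis) for genes called higher at 1 h, for those called higher at 2 h or at 6 h and not at 1 h, and for all tested genes, as boxes of the quartiles with the median and whiskers to 1.5 times the box. The median is 12.3 kb for the 1 h rises, 42.9 and 87.2 kb for the later ones and 28.9 kb for all genes.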

How the data were processed

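Total RNA libraries of BEAS-2B cells were made with a TruSeq kit, per the labels' protocols. STAR 2.4.2a, bcl2fastq 2.17.1.14 and GRCh38 are listed, per the submitters' processing notes; the sources used here do not name the quantifier, annotation or use of strand. Each library has 1 deposited value, a normalised signal, for each of 29273 genes. The authors name it TPM, but library sums run from 847289 to 1498420, so it was treated neither as TPM nor as counts, and depth is unknown. The design had assumed TPM, and its test on log2(value + 1) fits this signal too. 10 columns were not used: 4 that the authors mark as excluded and 6 headed 8 h, a time no label gives.

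Genes at 1 or more in at least 5 of 150 libraries were tested (14827; 14446 left out) in 1 limma model (3.58.1, R 4.3.3) of 32 groups with 118 residual degrees of freedom, trended eBayes and Benjamini-Hochberg adjustment, and called at an adjusted p below 0.05. All adjusted p-values are from limma. The model was tested on simulated data with independent noise, the same spread of a gene in all groups and no shared replicate effect. That test therefore says nothing on a shared replicate effect or on spreads that differ between groups. The pooled spread has a median SD of 0.288 over genes, against 0.306 in the 2 groups compared. Alternatives were a pseudocount of 0.1, no filter, median-of-ratios scaling, each time or the groups compared alone, a replicate block, no library over 20% mitochondrial, and each replicate left out.

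The rule named the 20 largest rises and 12 largest falls with 5 of 5 pairs agreeing, up to 4 called members per list, the receptor pathway, and called genes whose change differed between 1 and 2 h. Other names were chosen after values were seen, and some items are not reported here. The members and the 23 gene lists and 5 marker lists were chosen with earlier results of these data known. Symbols were matched to GENCODE 29 on GRCh38 (14396 of those tested) and to RefSeq promoter windows. Without strand information, overlapping and antisense genes cannot be told apart.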

Additional observations from a re-analysis of the deposited data

Results flagged for a closer look

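In 10 of 284 groups of 5 values looked at, 1 library lay far from the other 4, where chance gives about 1 in 20 groups; the value given is its gap to the nearest library as a share of the range, above 0.71. With indacaterol these were CXCL2 in replicate 3, the highest (0.738, value 12.4), DUSP5 in replicate 2, the highest (0.831, value 73.6), ARRB1 in replicate 4, the lowest (0.736, value 2.25), CSRNP1 in replicate 3, the highest (0.718, value 58.4), TCF21 in replicate 1, the lowest (0.721, value 15.2), and EFNA1, an ephrin gene named after values were seen, in replicate 3, the lowest (0.828, value 111). With vehicle they were BHLHE40 in replicate 5, the lowest (0.752, value 12.7), PDE10A in replicate 3, the highest (0.776, value 22.4), AVPI1 in replicate 5, the highest (0.72, value 71.9), and NUAK2 in replicate 1, the highest (0.711, value 10.2).

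The indacaterol change differed between 1 and 2 h in the test of the difference for 9 of the genes called higher at 1 h. It was larger at 1 h for DUSP1, by 1.12 on the log2 scale. The difference of 1 h minus 2 h was -2.58 for CRISPLD2, -1.39 for CES3, -1.24 for TM4SF1, -1.01 for PRAG1, -0.98 for CFAP251, -0.83 for BDNF, -0.82 for SIRPA and -0.73 for FSTL3. Without replicate 5 the difference was called for 0 of the 9.

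The indacaterol change differed with mometasone present for 8 of the genes called higher at 1 h. The difference of with minus without mometasone was 1.75 for RASD1, and it was -2.05 for SGK1, -1.69 for DUSP1, -1.58 for KRT17P1, -1.49 for DDIT4, -1.45 for C15orf48, -1.22 for PER1 and -1.03 for WWP2. Without replicate 4 it was called for DUSP1, RASD1 and C15orf48 of the 8, and with a pseudocount of 0.1 it was not called for RASD1 and KRT17P1.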

How the results depend on the processing

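For indacaterol against vehicle at 1 h the rises stayed within 1.5 times of 193 except with only the groups compared (83) and with a replicate block, and the falls, 15 in the main model, numbered 58 without the filter, 3 with each time fitted alone, 0 with only the groups compared and 5 to 24 with 1 replicate left out (rises 131 to 199). A replicate block gave 356 rises and 84 falls, all 193 and 15 among them. Same-numbered libraries of the 2 groups correlated between -0.34 and 0.727, and 3 of 5 correlated best with their own number. On that check, which used these 2 groups alone, the numbers were not taken to pair samples. Yet replicate 5 had the lowest median-of-ratios size factor in both groups (0.937 with vehicle, 0.954 with indacaterol). Replicate 3 had the highest (1.052 and 1.051). The other 1 h groups that hold a replicate 5 also had it lowest. It was 0.939 with carbachol, 0.963 with mometasone and indacaterol, 0.937 with mometasone and carbachol, and 0.957 with indacaterol and carbachol. Same-numbered libraries may therefore share an effect, which was not tested. The p-values of the main model ignore any effect that same-numbered libraries share. Under that block the totals were 1517, 1167 and 228 at 2, 6 and 18 h (579, 258 and 30 in the main model), 5752, 524 and 5213 for indacaterol added to carbachol, to mometasone and to both (983, 213 and 356), and 189, 44 and 2003 for the differences with time, mometasone and carbachol (18, 11 and 0).

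With only the groups compared these totals were 313 at 2 h, 1 at 18 h, 56, 46 and 69 on the 3 backgrounds, and 0 and 3 for the differences with time and mometasone. With each time fitted alone they were 345, 119 and 157 on the backgrounds and 8 and 4 for those differences. Without a filter 71 genes were called at 18 h. Without libraries over 20% mitochondrial 568 were called with carbachol, 9 differed between 1 and 2 h, and 1 differed with carbachol. With 1 replicate left out the totals ran from 143 to 262 at 6 h, 13 to 23 at 18 h, 259 to 3249 with carbachol, 116 to 233 with mometasone and 165 to 621 with both, and from 3 to 14, 3 to 14 and 0 to 11 for the differences with time, mometasone and carbachol. The cause of these shifts was not tested.

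Of 1596 values of called single genes under the alternatives, 1348 were still called, 248 were not, and 0 changed sign; of 312 values of uncalled genes, 3 became called, and 26, of 13 genes, changed sign. A further 75 shared or list counts moved. AKAP12 was called higher under the replicate block. Read depth is unknown, and no detection limit can be given for low genes.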

Other observations

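Genes described here were chosen after their values were seen and stand outside the lists. Indacaterol raised several transcripts of secreted or surface proteins that act between cells. EFNA1, the gene of ephrin A1, had 138, 141, 111, 142 and 145 in indacaterol replicates 1 to 5, against 31.8, 32.1, 30.3, 37.5 and 44.8 in vehicle replicates 1 to 5 (log2 change 1.92, SE 0.19, adjusted p = 2.79e-15). ACKR3, a scavenging chemokine receptor gene, rose (log2 change 1.73, SE 0.20, adjusted p = 4.12e-12), as did CD200, which encodes a ligand that restrains myeloid cells (log2 change 1.83, SE 0.21, adjusted p = 7.61e-12), and CD274, which encodes PD-L1 (log2 change 1.10, SE 0.29, adjusted p = 0.0199). CD274 lost its call without replicate 2 or 4 (adjusted p = 0.873 and 0.338). CD24, a surface glycoprotein gene, also rose (log2 change 1.86, SE 0.28, adjusted p = 3.13e-07). DMBT1, an epithelial mucin-like defence gene, had 6.14, 43.1, 6.04, 35.4 and 7.45 with indacaterol, against 3.32, 1.99, 1.22, 4.64 and 3.08 with vehicle (log2 change 2.00, SE 0.49, adjusted p = 0.00715). Replicates 2 and 4 were far above the other indacaterol libraries, and its adjusted p was 0.428 without replicate 2 and 0.0636 without replicate 4. DMBT1 had log2 changes of 3.64 at 2 h and 2.46 at 6 h.

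Developmental transcription factor genes were also among the 193. TBX3 (log2 change 1.94, SE 0.25, adjusted p = 7.48e-10), IRX1 (log2 change 1.30, SE 0.21, adjusted p = 2.45e-06), FOXC1 (log2 change 1.22, SE 0.25, adjusted p = 0.000426), TFAP2A (log2 change 0.97, SE 0.19, adjusted p = 0.00011) and SOX9 (log2 change 1.00, SE 0.23, adjusted p = 0.00354) rose at 1 h. Without replicate 4 FOXC1 and SOX9 lost their calls (adjusted p = 0.0932 and 0.189), and SOX9 also did without replicate 2 or 3 (0.101 and 0.0546). TCF21, a helix-loop-helix factor of lung mesenchyme, had 15.2, 24.9, 23.6, 27.9 and 23.6 with indacaterol, against 8.68, 11.2, 9.33, 8.54 and 10.8 with vehicle (log2 change 1.15, SE 0.13, adjusted p = 1.44e-12), and was called higher at every later time. CITED2 and CITED4 encode CBP-binding proteins and had log2 changes of 1.28 and 1.76. CITED2 was not called at 2 h (log2 change 0.66, SE 0.22, adjusted p = 0.0849), and CITED4 had a log2 change of 2.46 there. PPP1R3C, which directs a phosphatase to glycogen, rose (log2 change 2.08, SE 0.19, adjusted p = 5.91e-17), and NUAK2, a kinase of the AMPK family, rose as well (log2 change 1.73, SE 0.15, adjusted p = 8.96e-18).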
